A study of Mus musculus with 2 samples.

Results

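The BCL2 family genes described here are 10 regulators of the mitochondrial pathway of apoptosis: the anti-apoptotic Bcl2, Bcl2l1 and Mcl1, the pore-forming effectors Bax and Bak1, and the BH3-only genes Bcl2l11, Pmaip1, Bbc3, Bid and Bad. The members were every probe set whose annotation gave exactly 1 symbol from this list. They came to 29 probe sets of 9 genes, among 45101 probe sets and 18194 genes with such a symbol; no probe set was annotated to Bax in the table used, so Bax is not analysed here. Of the 29, 15 belonged to the 3 anti-apoptotic genes and 14 to 6 pro-apoptotic genes.

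The study compared 2 cultures of E14, a mouse embryonic stem cell line grown on gelatin in medium with serum and leukemia inhibitory factor. One was infected with a lentivirus carrying a non-targeting shRNA (shCtrl) and the other with shSin3a-1, a single shRNA against Sin3a, and both were selected with puromycin. RNA from each culture was hybridised to 1 Affymetrix 3' expression array, so there were no replicates, no error over samples could be given and no test was possible. Every difference below compares these 2 arrays.

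In the mitochondrial pathway, BAX and BAK form pores in the outer membrane and release cytochrome c, which activates caspases through APAF1. BCL2, BCL-XL (the product of Bcl2l1) and MCL1 hold the effectors in check, and BH3-only proteins such as BIM (Bcl2l11), NOXA (Pmaip1), PUMA (Bbc3), BID and BAD bind them and tip the balance towards death. SIN3A is the scaffold of a histone deacetylase complex that DNA-binding factors, among them MXD proteins paired with MAX, bring to promoters.

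The 250 bases upstream of the annotated starts, from RefSeq (build GRCm38.p6), were searched for the E-box CACGTG, the site of MAX pairs, and for the GC box GGGCGG, on both strands and with overlapping matches counted. They are a description of these windows and not of binding. Of the 10 genes 9 had entries, with 15 windows. The E-box was in 2 of the 15 (those of Bax and Bbc3), against 6.02% of all 32851 windows, and the GC box was in 10 of the 15, in 7 genes, against 32.7% of all windows. The most upstream Bcl2l11 window (chr2:128125788-128126037, + strand) is printed because all kept probe sets of that gene were higher in shSin3a-1. It has 3 GC boxes, in capitals, and no E-box. The kept probe sets of Bid were all higher too, and its window also has 3 GC boxes. The Bcl2 window and 1 Bbc3 window have 7 each, while Bcl2 had no kept probe set and that of Bbc3 was not higher. The Bbc3 E-box (chr7:16310357-16310382, + strand) is printed with its flanks, the site in capitals, because Bbc3 is the analysed member that holds one.
Bcl2l11 upstream: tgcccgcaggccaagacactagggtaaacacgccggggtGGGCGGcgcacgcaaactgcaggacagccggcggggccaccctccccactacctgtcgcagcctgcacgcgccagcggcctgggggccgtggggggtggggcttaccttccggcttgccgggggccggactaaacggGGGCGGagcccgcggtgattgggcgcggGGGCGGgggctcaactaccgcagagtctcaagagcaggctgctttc
Bbc3 E-box: ggggcgggcgCACGTGgcggcgtcga

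The array labelled shSin3a-1 had less Sin3a messenger RNA in 3 of 3 probe sets, the brightest with a signal of 534 against 3072 on the control array (17.4% of control). All 8 embryonic stem cell markers examined had bright signals on both arrays, such as Pou5f1 at 8989 and 8619. Summed signals of other cell types' markers were far lower. They were 388 and 774 for 6 primitive endoderm markers, 1694 and 1020 for 6 of trophectoderm, and 502 and 312 for 7 of fibroblasts, of which 4, including Col1a1 and Col3a1, were under the floor on both arrays. These sums differed between the arrays, and their part in the results below was not tested. Signals are on the linear scale of MAS5, Affymetrix's probe set summary, and differences are log2 of shSin3a-1 minus log2 of shCtrl.

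A probe set was kept if its mean log2 signal over both arrays reached the 60th percentile, a signal of about 126. Kept were 19 of the 29 member probe sets, in 8 genes, among 18015 kept probe sets in all. Of the 10 that were not kept, 5 belonged to Bcl2, 2 to Bcl2l1, 2 to Bcl2l11 and 1 to Bak1. In these 10 the signals lay between 0.927 and 116, and no fold is drawn from them in the main setting. Over all kept probe sets 2.40% were at 2-fold or more higher in shSin3a-1 and 1.93% lower, or 4.32% in either direction.

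**Figure D1:**
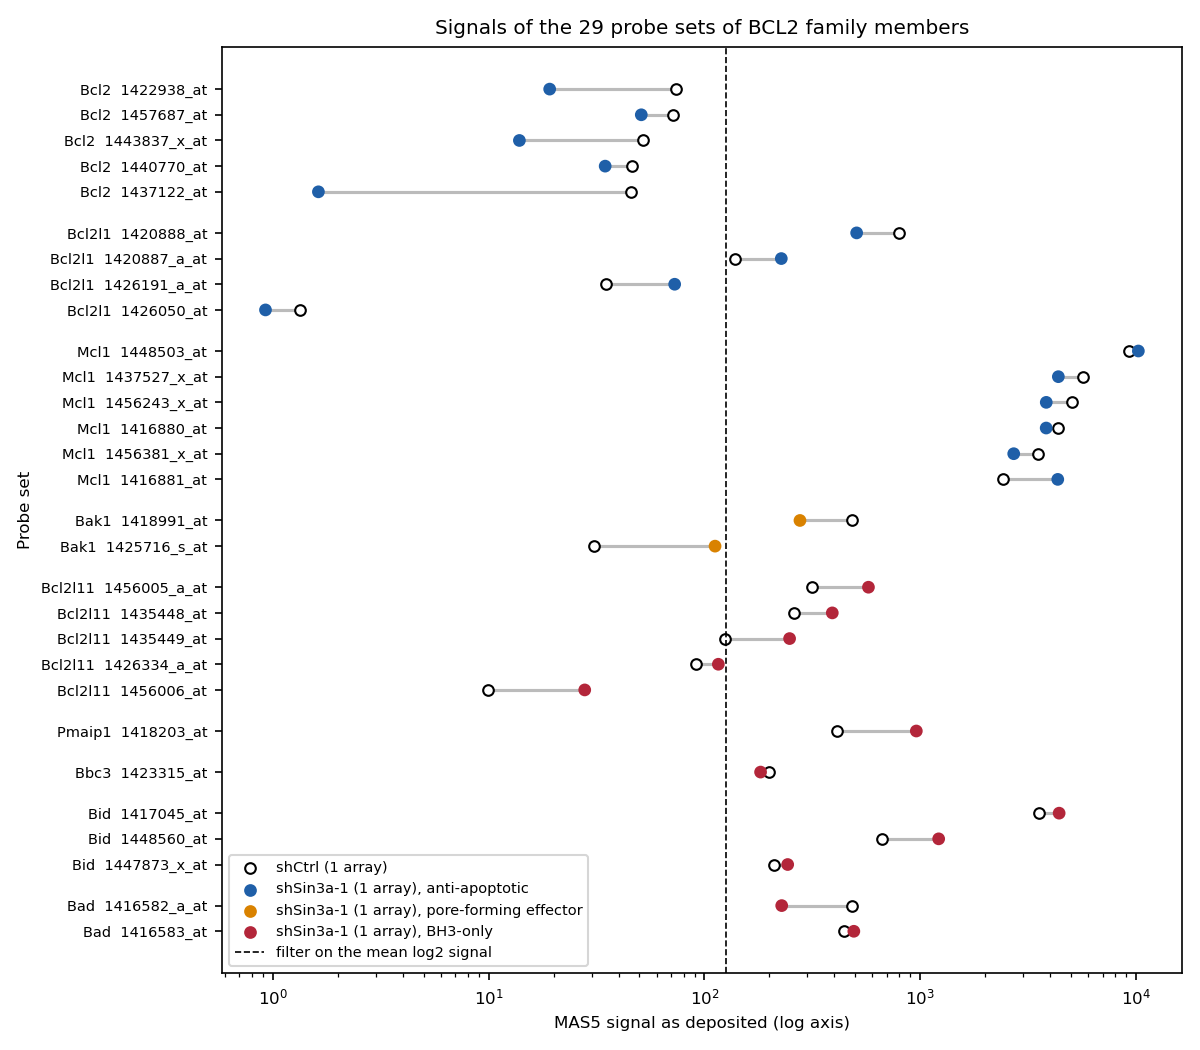
Each line joins the deposited MAS5 signal of 1 member probe set in shCtrl (open circles) and in shSin3a-1 (filled circles, coloured by role) on a log axis, with 1 array per group; the dashed line is the signal of 126 that the mean log2 signal had to reach. The 5 Bcl2 probe sets lie to its left, all 6 Mcl1 probe sets lie far to its right, and the 3 kept Bcl2l11 probe sets have the filled circle to the right.

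Among the BH3-only genes, Pmaip1 and Bcl2l11 were higher in shSin3a-1, Bid was higher by less, Bbc3 was about level and the probe sets of Bad disagreed. Pmaip1, which encodes the MCL1-binding protein NOXA, had a single probe set, 1418203_at, with signals of 409 (shCtrl) and 958 (shSin3a-1). This was 2.34-fold higher (log2 difference 1.23), the highest among the 19 kept member probe sets. Of kept probe sets of similar brightness (mean signal between the 75th and 90th percentile), 2.89% differed by 2-fold or more in either direction and 99.3% had a lower difference than Pmaip1. No second probe set of Pmaip1 was there to set beside it. In a bulk culture, a higher level per cell and more cells that express the gene cannot be told apart, here and below.

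Bcl2l11 encodes BIM, which binds all the main anti-apoptotic proteins. Its brightest probe set, 1456005_a_at, had signals of 315 and 575, and 1435448_at had 261 and 391. The third kept probe set, 1435449_at, had 124 and 248. The log2 differences were 0.87, 0.59 and 1.01, so that 3 of 3 kept probe sets were higher, and the third was just past 2-fold (2.01-fold). This last one fell just short of 2-fold when the arrays were scaled on their 75th percentile (0.997). Of the dimmer probe sets, which were not kept, 1426334_a_at had 91.4 and 116, and 1456006_at was under the floor (the 40th percentile of an array) on both arrays and is not read.

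Bid encodes a BH3-only protein that caspase-8 cleaves to link death receptors to mitochondria. All 3 of its probe sets were kept and all were higher in shSin3a-1. The brightest, 1417045_at, had signals of 3558 and 4394 (log2 difference 0.30), and 1448560_at had 665 and 1216 (0.87), although both were designed from 1 transcript record. The dimmest, 1447873_x_at, had 209 and 243 (0.22). Bid was therefore 1.16- to 1.83-fold higher, under 2-fold throughout.

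Bbc3, which encodes PUMA, a target of p53, had signals of 200 and 182 in its single probe set (-0.13). Bad encodes a BH3-only protein that survival kinases inactivate by phosphorylation. Its probe set 1416583_at had 441 and 492 (0.16), while 1416582_a_at had 482 and 228 (-1.08, 2.11-fold lower), from the same transcript record. The gap of 1.24 between the Bad probe sets was larger than that of 98.4% of 1639 pairs of kept probe sets that shared a gene and a transcript record, whose median gap was 0.25. With each array centred on its log2 median, 1416582_a_at was at -0.97 and under 2-fold.

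Bak1 encodes BAK, a pore-forming effector that sits in the outer mitochondrial membrane. Its kept probe set, 1418991_at, had 482 on the control array and 277 on the other, a difference of -0.80 (57.5% of control). Of kept probe sets of similar brightness (60th to 75th percentile of mean signal), 7.76% had a lower difference. Its other probe set, 1425716_s_at, had 30.9 and 112 and did not reach the filter. In shCtrl it lay under the floor (a signal of 46.8, the 40th percentile of that array). No difference is drawn from it in the main setting. Bak1 thus rests on 1 probe set.

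Among the anti-apoptotic genes, the signal of Mcl1 was high on both arrays and its probe sets differed in direction. MCL1 is a short-lived protein that holds BAK and BIM. The brightest probe set, 1448503_at, had signals of 9255 and 10227 (0.14). Of the other 5, 4 were lower in shSin3a-1. These were 1437527_x_at at 5656 and 4357 (-0.38), 1456243_x_at at 5049 and 3830 (-0.40), 1456381_x_at at 3489 and 2707 (-0.37) and 1416880_at at 4329 and 3827 (-0.18). The 3 with the suffix _x, which marks probes that can match other transcripts, were close to each other.

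The remaining Mcl1 probe set, 1416881_at, was 1.79-fold higher, with signals of 2416 and 4330 (0.84). Only 0.533% of kept probe sets this bright (at or above the 90th percentile) passed 2-fold in either direction, and 99.2% of them had a lower difference. It shared its transcript record with 1448503_at and 1416880_at, so that 3 probe sets of 1 record ran from -0.18 to 0.84. Mean log2 signals over all 6 probe sets differed by -0.06.

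Bcl2l1 encodes BCL-XL. Its brighter kept probe set, 1420888_at, had signals of 793 and 507 (-0.65, 63.9% of control), and 1420887_a_at had 139 and 227 (0.71, 1.64-fold higher). The gap of 1.36 between these probe sets of 1 transcript record exceeded that of 99.2% of the 1639 pairs. Of the other Bcl2l1 probe sets, 1426191_a_at was at 35.1 and 72.8 and 1426050_at was at 1.34 and 0.927. By probe set, Bcl2l1 was thus lower in 1 and higher in 1 of the 2 that were kept.

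Bcl2 itself, the founding member of the family, was near background. Its 5 probe sets had signals between 45.5 and 74.0 in shCtrl and between 1.63 and 51.0 in shSin3a-1. None reached the filter, and 4 of them were under the floor (46.8 in shCtrl and 41.7 in shSin3a-1) on at least 1 array. At such signals MAS5 ratios are not interpretable, and no difference is given.

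**Figure D2:**
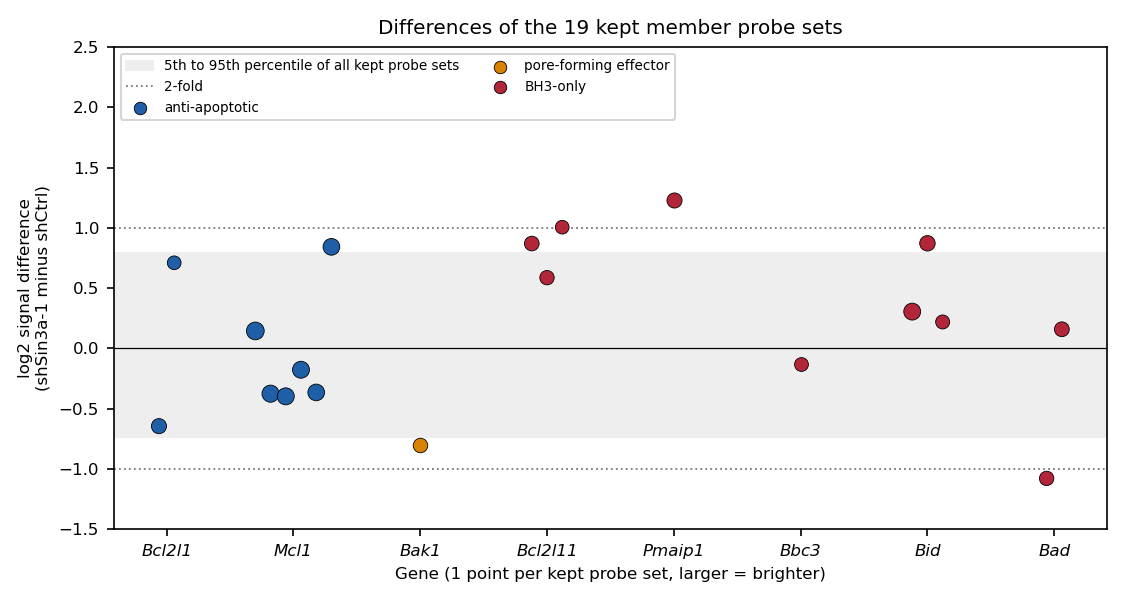
Each point is the log2 signal difference (shSin3a-1 minus shCtrl) of 1 kept member probe set, by gene and coloured by role, with larger points for brighter probe sets; the grey band runs from the 5th to the 95th percentile of all 18015 kept probe sets (-0.73 to 0.79) and the dotted lines mark 2-fold. Above the band lie Pmaip1, 2 Bcl2l11 probe sets and 1 each of Bid and Mcl1. Below it lie 1 each of Bak1 and Bad, while Bcl2l1, Mcl1 and Bad have points on both sides of 0. The band takes no account of brightness.

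Set against each other, the pro-apoptotic members lay above the anti-apoptotic ones in their median. The 11 kept pro-apoptotic probe sets had a median difference of 0.30, and 8 of them were above 0. The 8 kept anti-apoptotic probe sets had a median of -0.27, and 3 were above 0. Without probe sets of shared sequence, which leaves 4 anti-apoptotic and 8 pro-apoptotic ones, the medians were -0.02 and 0.45. That setting drops the suffixes _a, _s and _x alike where the gene has another probe set. The _a probe sets of Bcl2l1 (0.71), Bcl2l11 (0.87) and Bad (-1.08) thus go with the _x ones of Mcl1 and Bid. With the mean of each gene's probe sets, which leaves Mcl1 as the single anti-apoptotic gene, the value for that class was -0.06. All kept probe sets had a median of -0.02, with 48.4% above 0. The medians of the 2 classes differed by 0.58, but the range of the anti-apoptotic probe sets (-0.65 to 0.84) lay inside that of the pro-apoptotic ones (-1.08 to 1.23).

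This contrast rests on few genes. The anti-apoptotic class held 2 genes, and 6 of its 8 probe sets were those of Mcl1. With 1 value per gene, from the brightest probe set, the medians were 0.23 over 6 pro-apoptotic genes and -0.25 over 2 anti-apoptotic genes, which themselves differed in direction. The SD between kept probe sets of the same gene was 0.36, pooled over 4162 genes, and 43.7% of these genes had probe sets on both sides of 0, as Bcl2l1, Mcl1 and Bad had. The BH3-only genes made the pro-apoptotic median, and 8 of their 10 probe sets were above 0, with a median of 0.45. Bcl2l11 and Bid gave 3 each of these 8. By brightest probe set the median over the 5 BH3-only genes was 0.30, with 4 above 0. The single kept effector probe set, that of Bak1, was below 0.

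At 2-fold or more, 2 of the 19 kept member probe sets were higher (Pmaip1 and 1 of Bcl2l11) and 1 was lower (Bad), against the 2.40% and 1.93% over all kept probe sets. By brightest probe sets 1 of 8 genes, Pmaip1, passed 2-fold, against 2.94% of 9398 kept genes. Dim probe sets passed more often: the share was 8.29% between the 60th and 75th percentile of mean signal, where the Bcl2l11 and Bad probe sets past 2-fold lay. None of the 19 changed sign under 4 other scalings of the arrays (centring on the median, the 75th percentile, quantile and loess). The first 2 move every difference by 0.11 and 0.0077. Both shifts are less than the member difference nearest 0 (-0.13, Bbc3), so they could not change a sign.

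**Figure D3:**
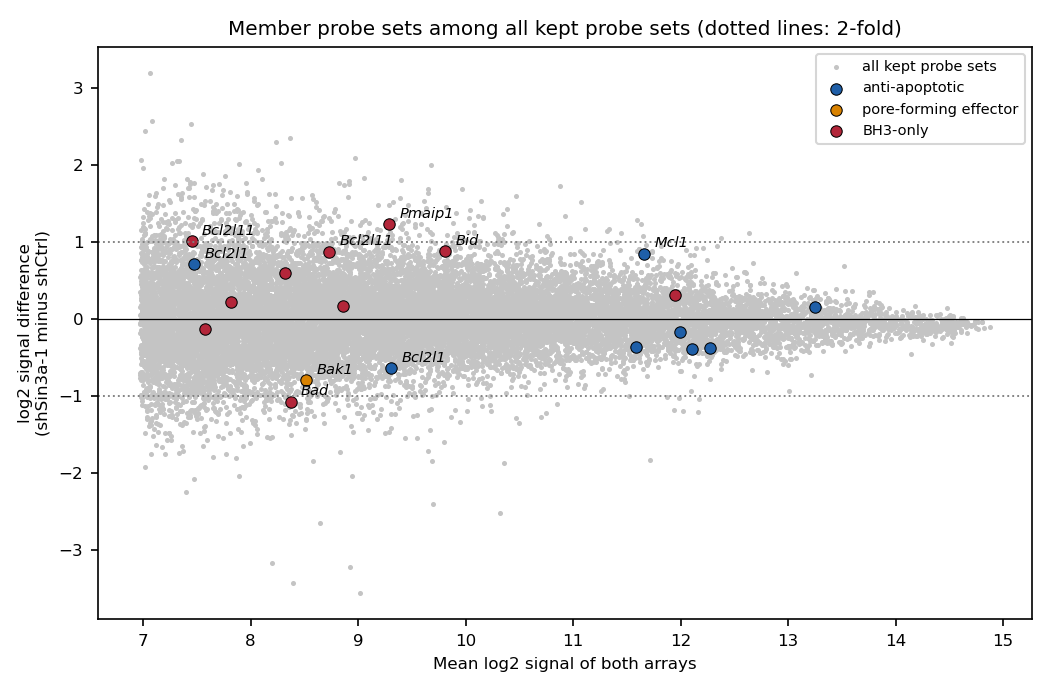
Log2 signal difference (shSin3a-1 minus shCtrl) is plotted against the mean log2 signal of both arrays for all 18015 kept probe sets (grey) and the 19 kept member probe sets (coloured by role), with 2-fold as dotted lines. The grey cloud narrows with signal, and Pmaip1 (1.23) and the Mcl1 probe set at 0.84 lie at its upper edge for their brightness.

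The rest of the pathway differed by less than 2-fold in every kept gene of the 6 lists examined, by brightest probe sets. Of all 9398 kept genes 46.2% were above 0 by brightest probe set, to set beside the counts below. Of 7 kept genes among other BCL2 family members, 4 were above 0 (6 with each array centred on its median), with a median of 0.12. The BH3-only genes Bik (129 and 211, 0.71) and Bmf (352 and 508, 0.53) differed most, and both kept probe sets of each were higher. Hrk, another BH3-only gene, was at 123 and 54.8 and did not reach the filter. The anti-apoptotic Bcl2l2 (263 and 287, 0.12) and the effector-like Bok (817 and 769, -0.09) were close to level, and Bok turned above 0 with each array centred on its median.

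Downstream of the mitochondria, 6 of 8 kept genes of the apoptosome and caspases were above 0 (5 with the 75th percentile, quantile or loess scaling), with a median of 0.14. Apaf1, the scaffold of the apoptosome, had signals of 493 and 811 (0.72), and the executioner caspase gene Casp6 had 425 and 640 (0.59). Casp9, the initiator caspase that APAF1 activates, was at 0.21, and cytochrome c (Cycs) was at 14530 and 15297 (0.07). Mitochondrial proteins released or bound by the family had a median of -0.01 over 8 genes, which was 0.10 after centring and 0.01 after loess; Diablo, an antagonist of the inhibitor of apoptosis proteins, differed most (1792 and 2372, 0.40).

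Of 5 kept inhibitor of apoptosis genes 3 were below 0 (median -0.13). Xiap, which blocks caspases directly, had 1186 and 1406 (0.25) in its brightest probe set and 0.88 in another, and Birc5 (survivin) had 6339 and 5801 (-0.13). All 4 kept death receptor genes were above 0, against 46.2% of all kept genes, with a median of 0.15. Tradd, an adaptor of TNF receptor 1, was highest (251 and 414, 0.72). Tnfrsf1a (0.03) and Cflar (0.05) were about level, and the kept probe sets of Cflar ran from -0.26 to 0.93. Among 7 kept regulators of the members, with a median of 0.09, Foxo3 stood highest. FOXO3 is a transcription factor that activates Bcl2l11 and Bbc3, and its gene had signals of 521 and 822 (0.66), with 2 of 2 kept probe sets higher. Foxo1, which encodes a related factor, was the lowest of the 7, at 524 and 408 (-0.36), while its other kept probe sets were above 0 (up to 0.44). Huwe1, a ubiquitin ligase for MCL1, was at 3465 and 2928 (-0.24), lower in 3 of 3 kept probe sets. Usp9x, which removes ubiquitin from MCL1, was at 2824 and 3330 (0.24). Of its 6 kept probe sets 5 were above 0 and 1 below (-0.13 to 0.81). Fbxw7, of the same list, was at 1364 and 1190 (-0.20), and at 0.55 in its other kept probe set.

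**Figure D4:**
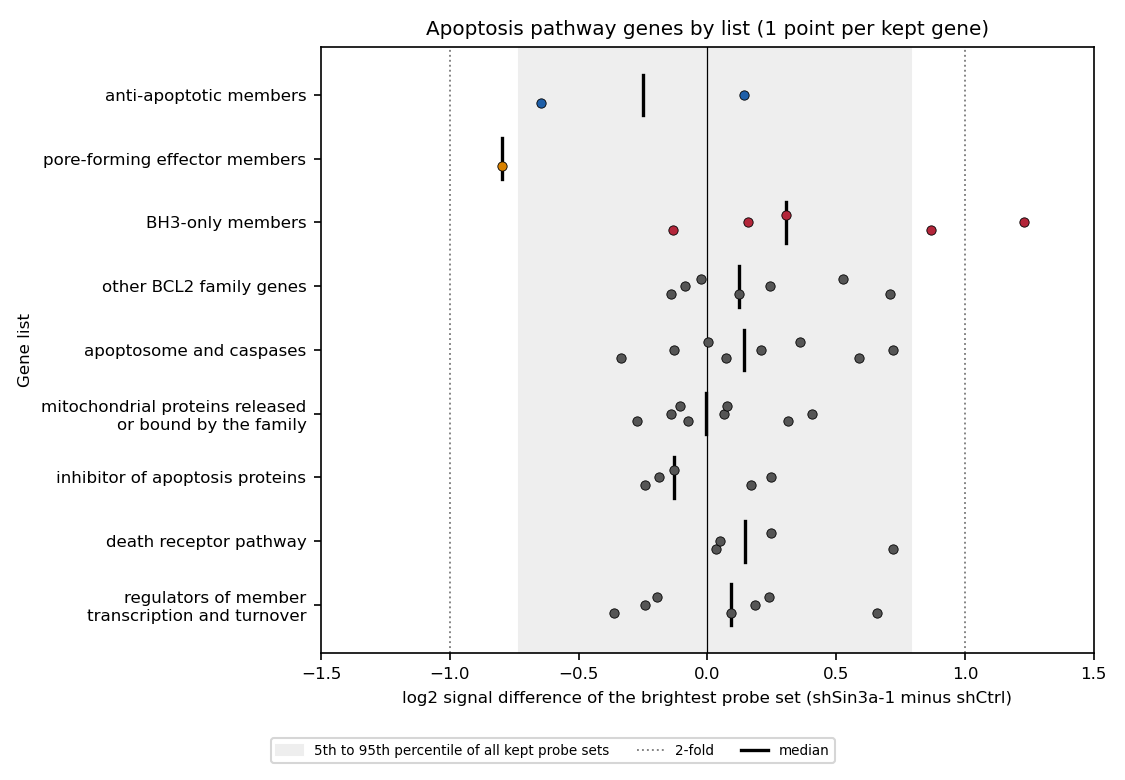
Each point is the log2 signal difference (shSin3a-1 minus shCtrl) of the brightest probe set of 1 kept gene, by list, with the list's median as a black bar, the 5th to 95th percentile of all kept probe sets in grey and 2-fold as dotted lines. Pmaip1, in the BH3-only list, is the point past 2-fold, and the medians of the 6 lists outside the members lie between -0.13 and 0.15.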

How the data were processed

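The authors deposited intensity signals, 1 per probe set and array. The submitters' processing notes name MAS5 and Affymetrix Expression Console, with versions not given in the sources used here. Both arrays had a trimmed mean of 500. Detection calls were not used. Symbols came from the platform annotation (34958 probe sets with 1 symbol, 932 with several, 9211 with none), updated by Entrez identifier for 34754.

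Signals were taken to log2 as deposited, without the 64 control probe sets. The array medians differed by -0.11 (shSin3a-1 minus shCtrl) but lie near background, and the 75th percentiles differed by 0.0077, so the deposited scaling was kept and centring on the median, which raises every difference by that shift, was an alternative. Lower values were raised to each array's 40th percentile (the floor). No difference of a single probe set was read where both arrays lay there, nor where the unequal floors of the arrays reversed a bound. Averages over the probe sets of a gene, an alternative, were taken before the floor was applied. Alternatives changed the scaling, filter, floor, offset, probe set choice and fold threshold. Named genes are all members, Sin3a, and, from each pathway list, genes past 2-fold or else the one that differed most; any other gene was picked once its values were known. Members and lists were chosen with earlier results of these data known. The procedure was tested on simulated data with planted differences larger than that of any kept member probe set. That test does not show how well differences of the size reported here are recovered. Analysis used Python 3.11.15, numpy 2.4.6 and pandas 2.3.3.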

Additional observations from a re-analysis of the deposited data

How the results depend on the processing

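With 1 array per group no replicate could be left out. No paired analysis was possible because each group had 1 array. The pro-apoptotic median was above 0 and the anti-apoptotic median below 0 in all 14 alternatives that give them, from 0.23 to 0.87 and from -0.37 to -0.02, the last without probe sets of shared sequence. Both other floors and the filter on the brighter value left the same 19 member probe sets at the same values, so they add nothing to this count. The difference between the medians of the classes ran from 0.46 to 1.24. The filter at the 75th percentile, which left 5 pro-apoptotic probe sets, gave the highest pro-apoptotic median (0.87) and the highest difference (1.24), against 0.30 and 0.58. Of all kept probe sets, 81.8% differed by less than 1.5-fold in either direction, to set beside the member counts at 1.5-fold. Members higher by 1.5-fold included the anti-apoptotic 1416881_at of Mcl1 and 1420887_a_at of Bcl2l1. Those lower included 1420888_at of Bcl2l1. The count of 2 member probe sets at 2-fold or more higher became 7 at 1.5-fold and 0 at 3-fold. It was 1 with the arrays scaled on the 75th percentile, with a filter at that percentile, with an offset of 50 before log2, with the brightest probe set of each gene and with the mean of all probe sets. The count of 1 lower became 3 at 1.5-fold. It was 0 at 3-fold, with the arrays centred on the median, under the stricter filter, with the offset of 50, without probe sets of shared sequence, with the brightest probe set and with the mean of all probe sets. Over its alternatives Pmaip1 ran from 1.14 to 1.34 and Bcl2l11 from 0.59 to 0.98 by brightest probe set. When each gene's probe sets were averaged, Bad turned to -0.46 and Mcl1 to -0.06, since the averages take in probe sets that were lower in shSin3a-1. Why the probe sets of each gene disagreed was not tested. All such averages were taken before the floor was applied, so those of Bak1 and Bcl2l11 include readings under it. The average of Bak1 is not read by itself for that reason. Both averages still enter the pro-apoptotic median of that alternative (0.50), which is limited in the same way. Dim signals limit Bcl2 and the other probe sets that were not kept.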
